A study of Arabidopsis thaliana with 12 samples.

Results

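The genes described here are 10 genes of indole glucosinolate synthesis and modification in the first leaf of Arabidopsis thaliana: the enzymes CYP79B2, CYP79B3, CYP83B1, UGT74B1 and SOT16, the regulators MYB34 and MYB51, and the modifying enzymes CYP81F2, IGMT1 and IGMT2. They were taken from 34133 identifiers in the expression files, by identifier alone. All 10 were among the 17203 genes that reached 1 FPKM (fragments per kilobase of exon, scaled to the mapped fragments of the library) in at least 2 libraries and were tested.

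Indole glucosinolates are sulfur-rich defence compounds that crucifers make from tryptophan. Cytochrome P450 enzymes turn the amino acid into an aldoxime and activate it, sulfur is donated through glutathione, and a glucosyltransferase and a sulfotransferase finish the core molecule. Regulators of the MYB family switch the pathway on, and hydroxylation and methylation of the indole ring then give the modified forms. Myrosinase enzymes break these down into products that act in defence against fungi and aphids. The aliphatic branch uses its own P450 enzymes, sulfotransferases and MYB regulators to make related compounds from chain-elongated methionine.

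RNA came from first leaves of 14-day-old seedlings grown on Murashige and Skoog plates with sucrose. There were 2 libraries of the hybrid Col-0×Aa-0, 2 of the hybrid Col-0×Per-1, 2 each of the accessions Aa-0 and Per-1, and 4 of the accession Col-0, a parent of both hybrids. None of the groups carried a mutation, transgene or treatment, per the labels. The labels do not say whether the libraries of a group came from separate plants, so the p-values measure the spread between these libraries, which may be technical. Levels below are FPKM, which are scaled per length. Differences are log2 differences of (FPKM + 1), which understate the change of low genes, with their standard errors and with p-values from limma adjusted by Benjamini-Hochberg over all 17203 genes. A gene was called at an adjusted p under 0.05.

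The 5 leaf markers summed to between 31294 and 59674 FPKM per library, and 5 of the 6 root markers did not reach the filter. The markers WUS and CLV3 of the shoot meristem were listed at 0 in every library. Vascular markers summed to 259 and 277 FPKM in Per-1 and to 339 to 448 FPKM in the other libraries, and 3 of 5 were called lower in Per-1 and in Col-0×Per-1, each against Col-0; their part in the results was not tested. Both of the first Col-0 replicates, 1 and 2, had the leaf marker RBCS1A at 0. Col-0 replicates 1 and 2 stood apart from Col-0 replicates 3 and 4 in clock genes, with LHY at 50.6 and 51.5 FPKM in the first pair and at 1.57 and 1.85 FPKM in the other pair. Among the 10 genes, the 2 pairs of Col-0 libraries did not overlap for CYP79B2, CYP79B3, UGT74B1 and SOT16. The means of the pairs differed by 0.08 to 0.86 on the log2 scale, in either direction. The share of all tested genes without such overlap was not computed. Over all tested genes, log2 differences between 2 libraries had an SD of 0.528 to 0.599 across the pairs. Within the pairs it was 0.241 for replicates 1 and 2 and 0.348 for replicates 3 and 4. The split thus reached beyond these genes and cannot be called particular to them. The tests count the 4 Col-0 libraries as separate replicates of 1 group. The part of the clock differences, within Col-0 and between groups, in the results was not tested. In leaf tissue, fewer cells of a type and less RNA per cell cannot be told apart.

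Sequence similarity bears on how far the IGMT values can be separated. IGMT1 (chr1:7386762-7388512) and IGMT2 (chr1:7395179-7396823) lie on the minus strand of chromosome 1 in a tandem array with IGMT3 and IGMT4. Over 1122 coding bases, IGMT2 and IGMT3 were 97.4% identical, and IGMT1 and IGMT2 were 92.5% identical. Of the 50-base words of IGMT2, 59.6% occurred in no other tandem copy, against 83.6% for IGMT1, and 39.9% were also in IGMT3. The first 90 coding bases of the 4 copies (RefSeq TAIR10.1, minus strand, from the start codon) show this directly, with the 7 variable positions in capitals. They span chr1:7388229-7388318 for IGMT1, chr1:7396551-7396640 for IGMT2, chr1:7391330-7391419 for IGMT3 and chr1:7400381-7400470 for IGMT4.
IGMT1: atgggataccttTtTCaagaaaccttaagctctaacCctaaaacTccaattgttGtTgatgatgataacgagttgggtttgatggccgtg
IGMT2: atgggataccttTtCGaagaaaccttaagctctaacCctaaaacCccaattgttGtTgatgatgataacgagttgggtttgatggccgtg
IGMT3: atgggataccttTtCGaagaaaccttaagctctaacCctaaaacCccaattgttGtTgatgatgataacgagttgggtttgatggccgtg
IGMT4: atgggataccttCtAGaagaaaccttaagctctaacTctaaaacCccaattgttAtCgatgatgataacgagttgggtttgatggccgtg
IGMT2 and IGMT3 read the same over this stretch, so a fragment from it cannot be assigned to either by its sequence. The values of IGMT2 are therefore uncertain as far as they could hold fragments of IGMT3. IGMT4, the most abundant copy, was 92.5% identical to IGMT2, and 0.93% of the 50-base words of IGMT2 were in IGMT4. These shares are for the reference genome. Whether fragments of IGMT4 from the other accessions were placed on IGMT2 was not tested.

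The entry enzymes CYP79B2 (AT4G39950, chr4:18525042-18527602, plus strand) and CYP79B3 (AT2G22330, chr2:9488413-9491404, plus strand) both convert tryptophan to its aldoxime. Their coding sequences were 81.2% identical with no shared 50-base word, so their reads can be told apart. Upstream of their annotated starts they share a block of 44 bases of which 42 are identical, 55 bases before the start of CYP79B2 (chr4:18524943-18524986) and 129 bases before that of CYP79B3 (chr2:9488240-9488283), both on the plus strand of TAIR10.1. The 2 positions that differ are in capitals.
CYP79B2: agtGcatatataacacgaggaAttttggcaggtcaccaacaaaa
CYP79B3: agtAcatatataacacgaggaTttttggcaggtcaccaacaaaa

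CYP79B2 had 20.6 and 18.6 FPKM in Col-0×Aa-0, 10.4 and 7.77 FPKM in Col-0×Per-1, 11.7 and 9.92 FPKM in Aa-0, 29.9 and 18.0 FPKM in Per-1, and 17.3, 14.2, 19.6 and 18.9 FPKM in Col-0. Its values in Col-0×Per-1 and Aa-0 lay below all others, and those of Per-1 and Col-0 overlapped. CYP79B3 had 25.1 and 20.5 FPKM in Col-0×Aa-0, 20.5 and 16.4 FPKM in Col-0×Per-1, 23.3 and 18.1 FPKM in Aa-0, 61.3 and 39.9 FPKM in Per-1, and 34.1, 27.3, 17.2 and 15.5 FPKM in Col-0. Both Per-1 libraries exceeded every other library for CYP79B3, while the other 4 groups overlapped.

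CYP83B1 (AT4G31500, chr4:15273410-15275404, minus strand), the P450 that activates the indole aldoxime, was the most abundant of the 10 genes. It had 113 and 85.1 FPKM in Col-0×Aa-0, 78.1 and 63.5 FPKM in Col-0×Per-1, 75.3 and 69.6 FPKM in Aa-0, 142 and 105 FPKM in Per-1, and 108, 102, 107 and 116 FPKM in Col-0. Col-0×Per-1 and Aa-0 again formed the low end, below every library of the other groups. UGT74B1 (AT1G24100, chr1:8525334-8527087, minus strand), the glucosyltransferase, averaged 35.2 ± 4.86 FPKM in Col-0×Aa-0, 27.9 ± 1.48 FPKM in Col-0×Per-1, 20.4 ± 4.40 FPKM in Aa-0 and 55.1 ± 7.29 FPKM in Per-1 (SD, n = 2 each), and 43.8 ± 1.84 FPKM in Col-0 (SD, n = 4). The libraries of these 5 groups did not overlap for UGT74B1, with Per-1 highest and Aa-0 lowest. SOT16 (AT1G74100, chr1:27864345-27865694, minus strand), the sulfotransferase that completes the core molecule, had 40.01 and 45.8 FPKM in Col-0×Aa-0, 43.5 and 29.3 FPKM in Col-0×Per-1, 36.2 and 33.9 FPKM in Aa-0, 82.6 and 69.0 FPKM in Per-1, and 67.8, 64.5, 60.01 and 42.6 FPKM in Col-0. Only Per-1 did not overlap with any other group for SOT16.

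MYB34 (AT5G60890, chr5:24494291-24496371, plus strand) and MYB51 (AT1G18570, chr1:6389399-6391386, plus strand) are activators of the indole branch. MYB34 had 9.32 and 3.64 FPKM in Col-0×Aa-0, 5.73 and 9.52 FPKM in Col-0×Per-1, 3.73 and 6.01 FPKM in Aa-0, 9.57 and 9.42 FPKM in Per-1, and 11.3, 13.5, 8.51 and 11.8 FPKM in Col-0. Aa-0 lay below Per-1 and Col-0, and the libraries of each hybrid differed from each other by more than those of Aa-0. MYB51 had 5.77 and 12.4 FPKM in Col-0×Aa-0, 11.5 and 3.88 FPKM in Col-0×Per-1, 9.35 and 3.95 FPKM in Aa-0, 19.7 and 15.9 FPKM in Per-1, and 10.97, 8.55, 15.4 and 6.64 FPKM in Col-0. For MYB51 the Per-1 libraries were the highest of the 12, and the other groups overlapped.

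CYP81F2 (AT5G57220, chr5:23187840-23189902, plus strand) is the P450 that hydroxylates the indole ring of the finished glucosinolate. It had 2.29 and 16.5 FPKM in Col-0×Aa-0, 3.90 and 0.69 FPKM in Col-0×Per-1, 7.64 and 2.29 FPKM in Aa-0, 17.9 and 8.71 FPKM in Per-1, and 20.6, 12.1, 13.4 and 3.37 FPKM in Col-0. Libraries of one group differed by more than most groups did. The residual SD of CYP81F2 within groups was 1.10 on the log2 scale, larger than that of 99.5% of the genes tested, against a median of 0.183.

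IGMT1 (AT1G21100) and IGMT2 (AT1G21120) methylate the hydroxylated compound. IGMT1 had 1.71 and 4.44 FPKM in Col-0×Aa-0, 3.31 and 0.96 FPKM in Col-0×Per-1, 1.41 and 0.70 FPKM in Aa-0, 17.6 and 9.43 FPKM in Per-1, and 7.60, 3.34, 5.94 and 2.64 FPKM in Col-0. Per-1 was above every other library, and Aa-0 was below all Col-0 libraries. IGMT2 had 7.57 and 13.7 FPKM in Col-0×Aa-0, 3.58 and 2.72 FPKM in Col-0×Per-1, 14.4 and 12.9 FPKM in Aa-0, 41.3 and 33.2 FPKM in Per-1, and 1.92, 1.42, 1.58 and 0.61 FPKM in Col-0. The order of IGMT2 was Per-1, then Aa-0 and Col-0×Aa-0, which overlapped, then Col-0×Per-1, then Col-0. By group mean, it was the only one of the 10 genes that was lowest in Col-0.

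**Figure D1:**
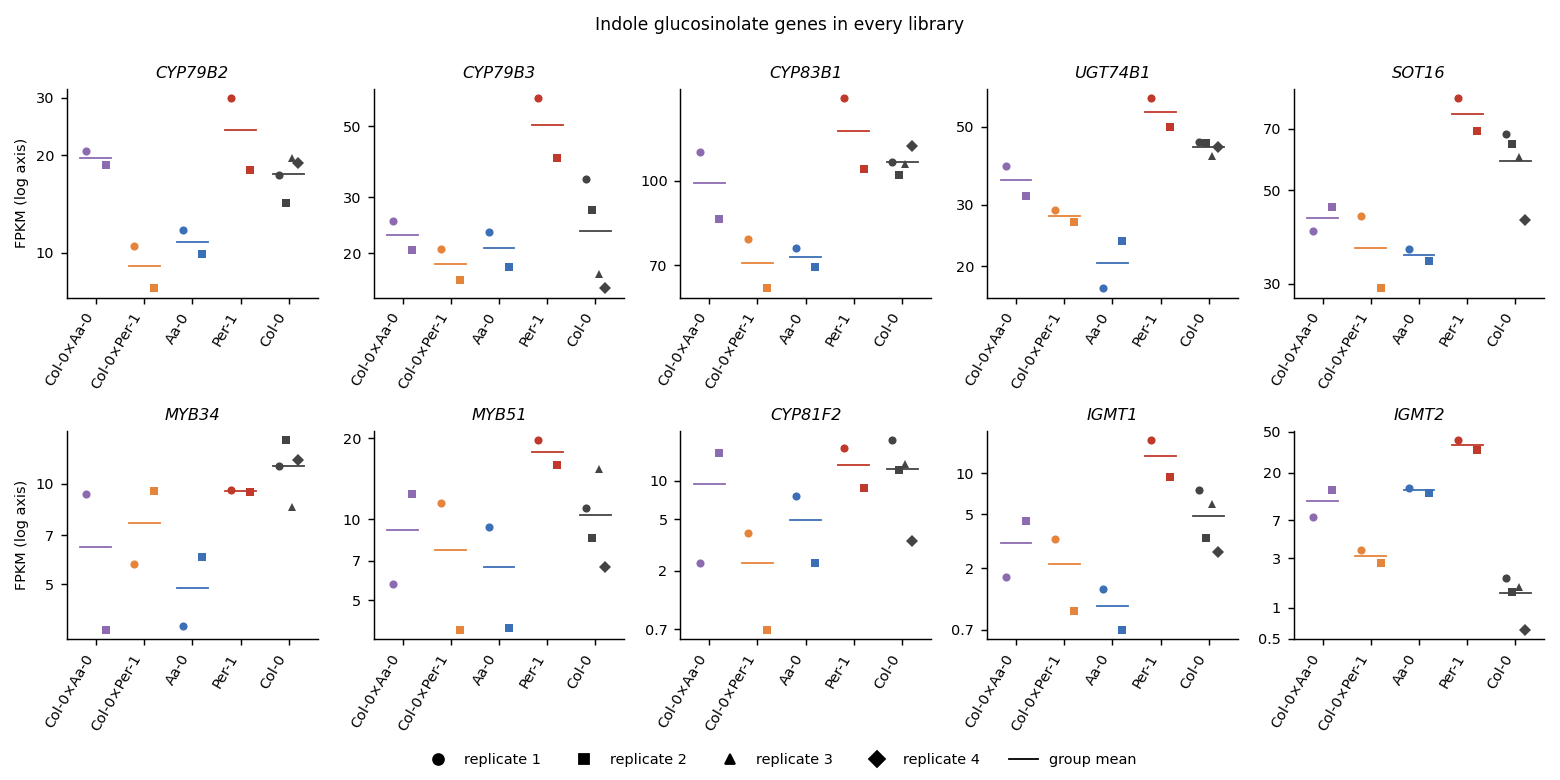
FPKM on a log axis of each of the 10 genes in every library, by group, with 1 marker shape per replicate number and a line at the group mean. Per-1 was highest for 9 of the genes by group mean, MYB34 was highest in Col-0, and the Col-0 libraries of IGMT2 sit between 0.61 and 1.92 FPKM, below all others.

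In Aa-0 set against Col-0, 3 of the 5 core enzymes and MYB34 were lower and IGMT2 was higher. IGMT2 rose by 2.65 ± 0.26 (adjusted p = 8.65e-05) and UGT74B1 fell by 1.08 ± 0.14 (adjusted p = 0.000606). CYP83B1 fell by 0.58 ± 0.16 (adjusted p = 0.0339), SOT16 fell by 0.71 ± 0.21 (adjusted p = 0.0430) and MYB34 fell by 1.08 ± 0.32 (adjusted p = 0.0447). In all, 5 of the 10 genes were called, 1 higher and 4 lower, where 16.7% of all genes were called, 4.72% higher and 12% lower. Of all calls 28.3% were higher, and 50.3% after median-ratio scaling of the libraries. The median of all genes was -0.14 in this comparison, and the 10 genes had a median of -0.67, or -0.54 relative to all genes. CYP79B2 (-0.64 ± 0.20, adjusted p = 0.0585) and IGMT1 (-1.45 ± 0.45, adjusted p = 0.0556) did not pass, and CYP79B3 was at -0.12 with a 95% interval of -0.80 to 0.56.

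The calls of UGT74B1 and IGMT2 in Aa-0 held in each of the 19 other settings tried. Those of CYP83B1, SOT16 and MYB34 ended under median-ratio scaling (adjusted p = 0.119, 0.0984 and 0.0945). They also ended when single libraries were left out: for CYP83B1 either Aa-0 library or Col-0 replicate 1, 3 or 4 (adjusted p from 0.0591 to 0.129), for SOT16 any of 9 libraries, namely each library of Aa-0 and Per-1, the pair of Col-0×Aa-0, and replicates 1, 2 and 3 of Col-0 (0.0580 to 0.172), and for MYB34 any of 7, namely both of Aa-0 and Per-1 and Col-0 replicates 1, 2 and 4 (0.0544 to 0.332).

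The aliphatic branch was also low in Aa-0, with 15 of its 20 genes called lower, none higher and a median of -1.25. Among the counterparts of the indole core, CYP79F1, the entry enzyme for methionine derivatives, fell by 2.06 ± 0.25 (adjusted p = 0.000393), with 10.8 and 10.2 FPKM in Aa-0 against 40.2, 49.1, 42.5 and 59.7 FPKM in Col-0. CYP79F2 fell by 1.48, CYP83A1 by 1.19, UGT74C1 by 0.89, SOT17 by 1.28 and SOT18 by 0.70, with adjusted p between 0.000115 and 0.00407. The regulators MYB28 (-0.13, adjusted p = 0.759) and MYB29 (-0.46, adjusted p = 0.279) were not called. IPMI SSU3 and IPMDH1, enzymes of methionine chain elongation, fell by 1.93 and by 1.85. CYP79F1 and CYP79F2 are close copies, so the split of reads between them is uncertain. Of these calls, that of UGT74C1 ended without Aa-0 replicate 1 (adjusted p = 0.0573). Within single libraries, the ratio of CYP79B2 to CYP79F1 in FPKM was 1.08 and 0.968 in Aa-0, against 0.431, 0.290, 0.461 and 0.317 in Col-0, which did not overlap. The ratio of CYP83B1 to CYP83A1 was also higher in Aa-0, at 1.95 and 1.80, against 1.05 to 1.38 in Col-0. The ratios of UGT74B1 to UGT74C1 (0.875 and 0.958 in Aa-0, against 0.871 to 1.18 in Col-0) and of SOT16 to SOT18 (1.31 and 1.13 in Aa-0, against 0.896 to 1.52 in Col-0) overlapped. That of MYB34 to MYB28 was lower in Aa-0, at 0.178 and 0.292, against 0.435 to 0.541 in Col-0. That of MYB51 to MYB28 overlapped, at 0.446 and 0.192 in Aa-0, against 0.246 to 0.835 in Col-0. Of 9 genes shared by both branches, 5 were called lower in Aa-0, among them GGP1 (-0.91), APK1 (-0.95), APK2 (-0.96) and SUR1 (-0.85), which act in sulfur donation, sulfate activation and carbon-sulfur cleavage.

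Other genes of the indole branch in Aa-0 included the tandem methyltransferase IGMT4, which fell by 1.21 ± 0.31 (adjusted p = 0.0261), and CYP81F1, a relative of CYP81F2, which fell by 1.32 ± 0.20 (adjusted p = 0.00170). CYP81F3 fell by 0.59 ± 0.18 (adjusted p = 0.04995), a call that ended without any of 10 libraries, all but Col-0 replicates 3 and 4 (adjusted p from 0.0540 to 0.203). In total 3 of the 6 tested among 8 further indole genes were lower in Aa-0. The call of IGMT4 ended without Col-0 replicate 1 or either Aa-0 library (adjusted p from 0.0513 to 0.127). CYP81F1 overlaps an annotated gene on the opposite strand, and the library kit does not mark strand. Of 9 genes of tryptophan synthesis, ASB1 fell by 0.88 ± 0.15 (adjusted p = 0.00346) and PAT1 fell by 0.73 ± 0.14 (adjusted p = 0.00736), the second of which ended without Aa-0 replicate 1 (0.0720).

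Per-1 set against Col-0 showed a higher IGMT2 and CYP79B3. IGMT2 rose by 4.03 ± 0.26 (adjusted p = 3.53e-06), with 41.3 and 33.2 FPKM in Per-1 against 0.61 to 1.92 FPKM in Col-0, and this call held in all 19 other settings. CYP79B3 rose by 1.11 ± 0.30 (adjusted p = 0.0248), a call that ended without Per-1 replicate 1 (adjusted p = 0.218) and with Col-0 replicates 1 and 2 as the only Col-0 libraries (0.68, adjusted p = 0.0553). The 2 called genes of 10 stand beside 25.7% of all genes called and 6.17% called higher. Of all calls 24.0% were higher, and 52.8% after median-ratio scaling, under which 4 of the 10 genes were called higher. The median was 0.39 for the 10 genes and -0.19 for all genes, a difference of 0.58, and 9 of the 10 were above 0. IGMT1 was at 1.33 ± 0.45 (adjusted p = 0.0568) and MYB34 was at -0.21 ± 0.32.

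The aliphatic branch in Per-1 had 6 of 20 genes called higher and 2 lower, and 17 were above 0. Its median was 0.39, and median-ratio scaling gave 9 called higher and 1 lower. MAM3, a methionine chain-elongation enzyme, rose by 4.999 ± 0.11 (adjusted p = 1.79e-09), with 46.5 and 40.3 FPKM in Per-1 against 0.29 to 0.46 FPKM in Col-0. CYP79F2 rose by 0.85 and SOT17 rose by 0.65, whereas CYP79F1 (0.27), CYP83A1 (0.63), UGT74C1 (0.14), SOT18 (0.24) and MYB28 (-0.05) were not called. MYB29 fell by 1.31 ± 0.27 (adjusted p = 0.00719). The calls of CYP79F2 and MYB29 ended without Per-1 replicate 1 (adjusted p = 0.0539 and 0.0773), and that of SOT17 without any of 8 libraries, namely both of Aa-0, Per-1 and Col-0×Per-1 and Col-0 replicates 1 and 3 (0.0526 to 0.208). Of 9 genes of tryptophan synthesis, 2 were called higher and 1 lower in Per-1. TSB2, a tryptophan synthase subunit gene with the close copy TSB1, rose by 1.20 ± 0.14 (adjusted p = 0.000263), and its split of reads is uncertain. ASA1 rose by 0.93 ± 0.20 (adjusted p = 0.00799) and ASB1 fell by 0.71 ± 0.15 (adjusted p = 0.00840). ASA1 and ASB1 encode subunits of anthranilate synthase, and their calls ended without Per-1 replicate 1 for ASA1 (0.103) and without Per-1 replicate 2 for ASB1 (0.109).

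**Figure D2:**
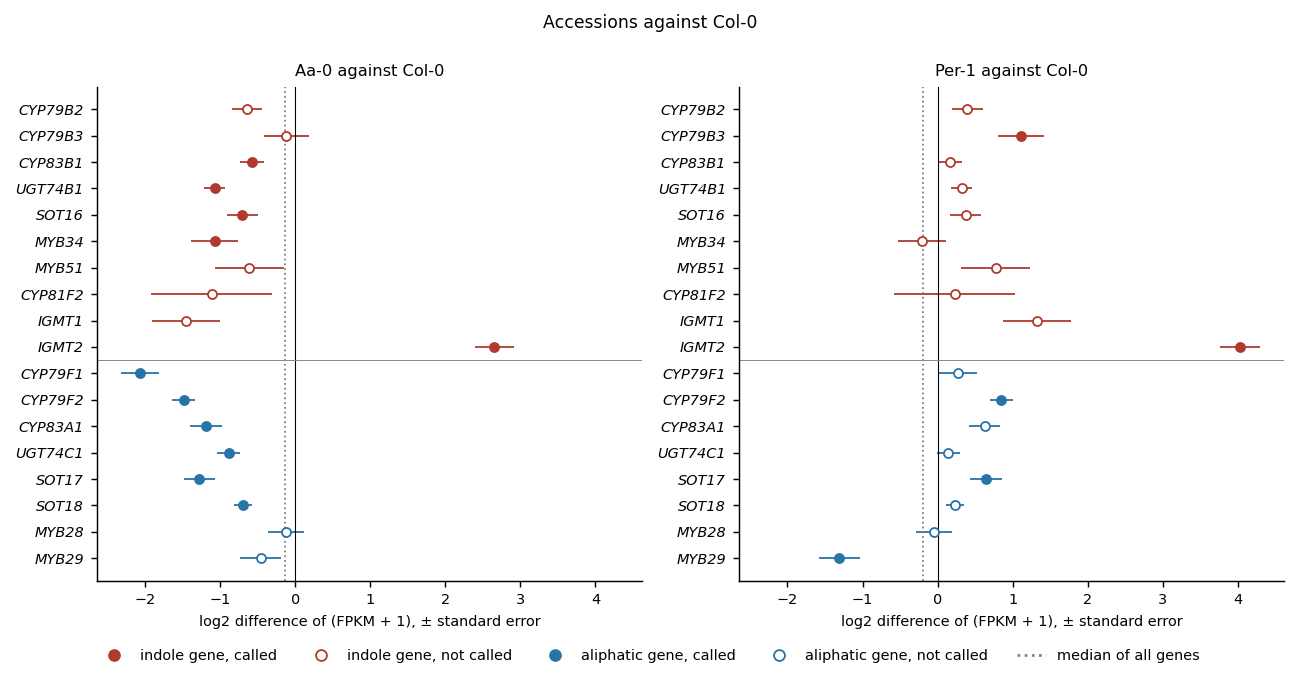
Log2 differences with standard errors of the 10 indole genes (red) and 8 aliphatic counterparts (blue) in Aa-0 and in Per-1, each against Col-0, with filled points for called genes and a dotted line at the median of all genes. IGMT2 is the one filled indole point above 0 in Aa-0, at 2.65, and reaches 4.03 in Per-1, while 6 of the 8 aliphatic counterparts are called below 0 in Aa-0.

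Aa-0 set against Per-1 had all 10 genes below 0, with a median of -1.29 against 0.05 for all genes. Of these, 6 were called lower, where 9.96% of all genes were called with 5.29% higher and 4.67% lower. UGT74B1 fell by 1.40 ± 0.16 (adjusted p = 0.000390), a call held in each of the 19 other settings. IGMT1 fell by 2.78 ± 0.53 (adjusted p = 0.00826), SOT16 by 1.08 ± 0.24 (adjusted p = 0.0174), IGMT2 by 1.38 ± 0.30 (adjusted p = 0.0176), CYP79B2 by 1.04 ± 0.24 (adjusted p = 0.0206) and CYP83B1 by 0.75 ± 0.18 (adjusted p = 0.0286). Each of these 5 calls ended without Per-1 replicate 1 and without Aa-0 replicate 2, and those of CYP79B2, CYP83B1, SOT16 and IGMT2 also without Aa-0 replicate 1, those of SOT16 and IGMT2 also without Per-1 replicate 2, with adjusted p between 0.0541 and 0.244. The call of IGMT2 also ended with a pseudocount of 0.1 (0.0735). The aliphatic branch had 14 of 20 genes called lower and a median of -1.98. CYP79F1 fell by 2.34, CYP79F2 by 2.34, CYP83A1 by 1.82, UGT74C1 by 1.03, SOT17 by 1.92 and SOT18 by 0.94. MYB28 (-0.08) and MYB29 (0.85) were not called.

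In the hybrid Col-0×Aa-0, 1 of the 10 genes was called against each parent. Against Col-0, IGMT2 alone of the 10 genes was called, at 2.27 ± 0.26 (adjusted p = 0.00138), where 2.31% of all genes were called, 1.13% higher and 1.17% lower, and the call held in all 19 other settings. Against Aa-0, UGT74B1 alone was called, at 0.77 ± 0.16 (adjusted p = 0.0340), where 2.74% of all genes were called, 1.87% higher and 0.872% lower. That call ended without any of 8 libraries, namely both libraries of each hybrid, Aa-0 replicate 1 and Col-0 replicates 1, 2 and 4 (adjusted p from 0.0530 to 0.263), and under quantile normalization (0.0607). CYP79B2, not called, was at 0.81 against Aa-0 with a 95% interval of 0.28 to 1.33, and its libraries did not overlap. IGMT2 in Col-0×Aa-0 was at -0.38 ± 0.30 against Aa-0, with a 95% interval of -1.06 to 0.29. In the aliphatic branch none of 20 genes was called against Col-0 and 8 were called higher against Aa-0, among them CYP79F1 (1.61, adjusted p = 0.0138) and CYP79F2 (0.81, adjusted p = 0.0401). CYP83A1 (1.02), UGT74C1 (0.51), SOT17 (0.85), SOT18 (0.42), MYB28 (0.07) and MYB29 (0.57) were not called against Aa-0. The call of CYP79F1 ended without either Aa-0 library or Col-0×Aa-0 replicate 1 (adjusted p from 0.0806 to 0.116), and that of CYP79F2 without any of 8 libraries, namely both of Aa-0 and of each hybrid and Col-0 replicates 1 and 3 (0.0537 to 0.249). Of all calls against Col-0, 49.1% were higher, and 65.3% after median-ratio scaling.

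In the hybrid Col-0×Per-1, 4 of the 5 core enzymes (CYP79B2, CYP83B1, UGT74B1 and SOT16) were called lower against each parent, those against Col-0 only without rescaling of the libraries. CYP79B3 was called against neither parent, at -1.38 ± 0.35 against Per-1 (adjusted p = 0.0576) and -0.27 ± 0.30 against Col-0 (adjusted p = 0.541). Against Per-1, 6 of the 10 genes were called lower, where 4.75% of all genes were called, 2.41% higher and 2.34% lower. IGMT2 fell by 3.20 ± 0.30 (adjusted p = 0.00015), to 3.58 and 2.72 FPKM in Col-0×Per-1, against 41.3 and 33.2 FPKM in Per-1, and held in all 19 other settings. UGT74B1 fell by 0.95 ± 0.16 (adjusted p = 0.00703), CYP79B2 by 1.27 ± 0.24 (adjusted p = 0.0117), SOT16 by 1.06 ± 0.24 (adjusted p = 0.0324), CYP83B1 by 0.78 ± 0.18 (adjusted p = 0.0377) and IGMT1 by 2.26 ± 0.53 (adjusted p = 0.0383). These 5 calls ended without Per-1 replicate 1 or without Col-0×Per-1 replicate 2, at adjusted p between 0.0733 and 0.368. Those of SOT16 and IGMT1 also ended without Per-1 replicate 2 or either Aa-0 library, and that of CYP83B1 without Col-0×Per-1 replicate 1 or any Aa-0 or Col-0 library (adjusted p from 0.0507 to 0.0933). The CYP83B1 call also ended under median-ratio scaling (0.0529) and that of IGMT1 with a pseudocount of 0.1 (0.0531).

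Against Col-0, 4 genes were lower in Col-0×Per-1, where 19.9% of all genes were called, 2.66% higher and 17.3% lower. CYP79B2 fell by 0.88 ± 0.20 (adjusted p = 0.0185), CYP83B1 by 0.61 ± 0.16 (adjusted p = 0.0257), UGT74B1 by 0.63 ± 0.14 (adjusted p = 0.0154) and SOT16 by 0.68 ± 0.21 (adjusted p = 0.0443). The median of all genes was -0.23, and median-ratio scaling, which sets it near 0, ended these 4 calls (adjusted p = 0.0811, 0.203, 0.110 and 0.215) and left IGMT2 called higher. Of all calls 13.4% were higher, and 50.3% after that scaling. All 4 calls also ended without Col-0×Per-1 replicate 2 (adjusted p from 0.1505 to 0.397), those of CYP83B1 and UGT74B1 also without Col-0×Per-1 replicate 1 (0.0514 and 0.0585), and that of SOT16 also without either library of Aa-0, Per-1 or Col-0×Aa-0 or Col-0 replicate 1, 2 or 3 (0.0549 to 0.0824). Without that scaling IGMT2 was at 0.83 ± 0.26 (adjusted p = 0.0519).

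The aliphatic branch in Col-0×Per-1 had 13 of 20 genes called lower against Per-1, and 10 lower and 1 higher against Col-0. CYP79F1 fell by 1.47 against Per-1 and by 1.20 against Col-0, and CYP79F2 fell by 1.72 and by 0.87. SOT17 fell by 1.46 and by 0.82, and SOT18 fell by 0.82 and by 0.59. CYP83A1 fell by 1.01 against Per-1 and was not called against Col-0 (-0.39). UGT74C1, MYB28 and MYB29 were called in neither comparison, at -0.44, 0.15 and 0.69 against Per-1 and at -0.29, 0.10 and -0.62 against Col-0. Against Per-1 the calls of CYP79F1, SOT17 and SOT18 ended without Per-1 replicate 1 or Col-0×Per-1 replicate 1, that of CYP79F1 also without Per-1 replicate 2 (adjusted p from 0.0521 to 0.164), and that of CYP83A1 without any of 9 libraries, namely both of Aa-0, Per-1 and Col-0×Per-1 and Col-0 replicates 1, 2 and 3 (0.0512 to 0.272). Against Col-0 the 4 calls named ended without Col-0×Per-1 replicate 1, and those of SOT17 and SOT18 also without replicate 2 (0.0526 to 0.152). Under median-ratio scaling 3 genes of the branch were lower and 1 higher against Col-0.

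Each hybrid was also set against its mid-parent, the mean of the fitted levels of its 2 parents. Both comparisons use the same Col-0 libraries. In Col-0×Aa-0 none of the 10 genes was called by limma, where 0.238% of all genes were called. CYP79B2, at 0.45 ± 0.19, was the 1 gene with an unadjusted limma value under 0.05. The fitted level of UGT74B1 was 35.1 FPKM in Col-0×Aa-0, against a mid-parent of 31.97 FPKM. The median of the 10 genes was 0.08 and that of all genes was -0.05. The aliphatic branch had none of 20 genes called and a median of 0.18.

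Against the mid-parent, Col-0×Per-1 had all 10 genes below 0 and 4 called lower, where 2.57% of all genes were called, 0.366% higher and 2.2% lower. IGMT2 fell by 2.29 ± 0.29 (adjusted p = 0.00591), to a fitted 3.13 FPKM in Col-0×Per-1, against a mid-parent of 19.2 FPKM. UGT74B1 fell by 0.80 ± 0.14 (adjusted p = 0.0203), to 27.8 FPKM in Col-0×Per-1 against 49.3 FPKM. CYP79B2 fell by 1.09 ± 0.20 (adjusted p = 0.0277), to 9.02 FPKM in Col-0×Per-1 against 20.3 FPKM, and CYP83B1 fell by 0.70 ± 0.15 (adjusted p = 0.0434), to 70.4 FPKM in Col-0×Per-1 against 115 FPKM. The others ranged from -2.13 ± 0.78 for CYP81F2 to -0.43 ± 0.30 for MYB34, and SOT16 was at -0.88 ± 0.20 (adjusted p = 0.0513). The median of the 10 genes was -0.93 against -0.14 for all genes. Of all calls 14.3% were higher, and 41.3% after median-ratio scaling.

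The 4 mid-parent calls in Col-0×Per-1 rest on few libraries. All ended without Col-0×Per-1 replicate 2 (adjusted p from 0.106 to 0.496) and without Per-1 replicate 1 (0.0542 to 0.139). Those of CYP79B2, UGT74B1 and CYP83B1 ended also without Col-0×Per-1 replicate 1 (0.0834, 0.0990 and 0.110) and under quantile normalization (0.0525, 0.0706 and 0.153), and that of CYP83B1 without any Aa-0 or Col-0 library (0.0534 to 0.0704) and under median-ratio scaling (0.121).

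In the aliphatic branch, 13 of 20 genes were called lower in Col-0×Per-1 than its mid-parent, with a median of -1.12. CYP79F1 fell by 1.34, CYP79F2 by 1.35, SOT17 by 1.18 and SOT18 by 0.71, whereas CYP83A1 (-0.73), UGT74C1 (-0.36), MYB28 (0.13) and MYB29 (-0.11) were not called. Median-ratio scaling left 5 genes of the branch called lower. Of the 9 shared genes, GGP1, APK1 and APK2 fell by 0.82, 0.69 and 0.97. Of the 9 genes of tryptophan synthesis, ASA1, ASB1, PAT1 and IGPS fell by 1.22, 0.99, 0.81 and 0.80. None of the 6 further indole genes tested was called. Apart from CYP79F2, the call of each gene named here as lower ended without Col-0×Per-1 replicate 2 (adjusted p up to 0.443), and all of these but GGP1 and ASB1 also ended without Per-1 replicate 1.

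**Figure D3:**
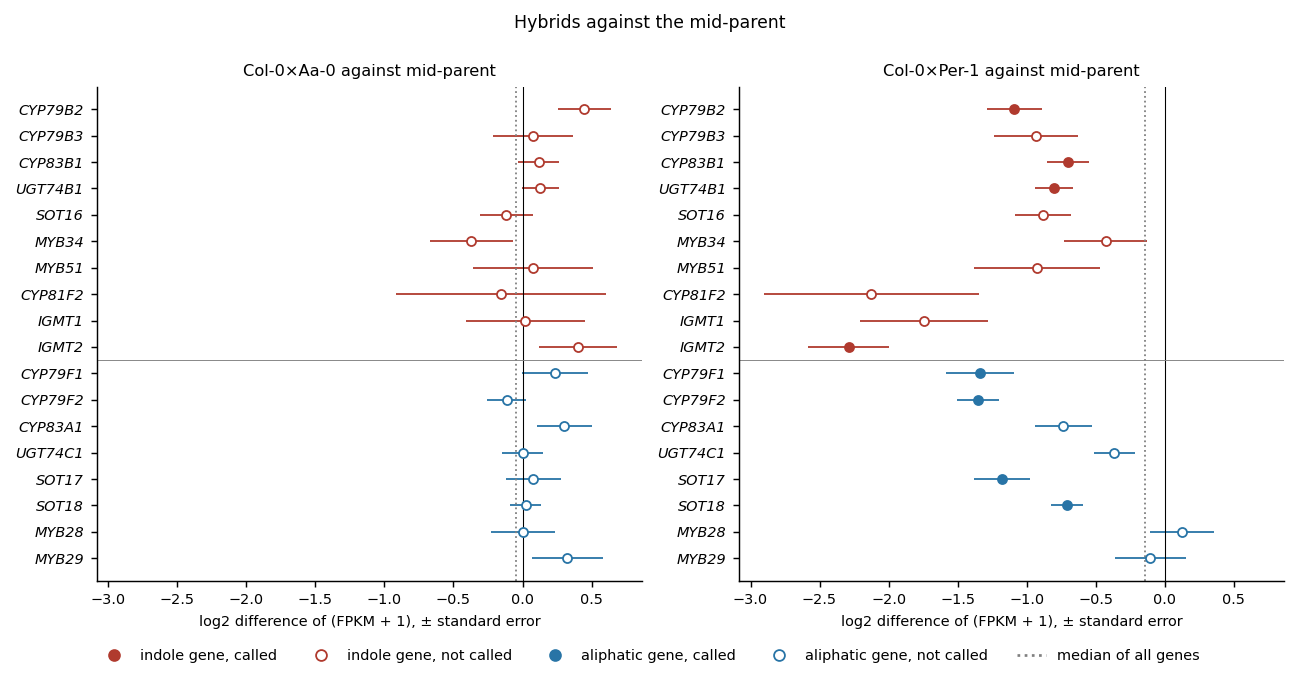
Log2 differences with standard errors of the 10 indole genes (red) and 8 aliphatic counterparts (blue) in each hybrid against its mid-parent, with filled points for called genes and a dotted line at the median of all genes. No point is filled in Col-0×Aa-0, and in Col-0×Per-1 all 10 indole genes sit between -2.29 and -0.43 with 4 filled.

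The hybrids were compared with each other directly and through their mid-parent deviations. Col-0×Aa-0 exceeded Col-0×Per-1 for IGMT2 by 1.44 ± 0.30 (adjusted p = 0.0424), the only call among the 10 genes, where 2.04% of all genes were called, 1.24% higher and 0.802% lower. CYP79B2 was at 1.04 ± 0.24 (adjusted p = 0.0605). The mid-parent deviation of IGMT2 in Col-0×Aa-0 (0.40) exceeded that in Col-0×Per-1 (-2.29) by 2.69 ± 0.41 (adjusted p = 0.0326), where 0.233% of all genes were called, 0.18% higher and 0.0523% lower. Of all calls in the 2 comparisons, 60.7% and 77.5% were higher, and 46.0% and 73.0% after median-ratio scaling. Both calls of IGMT2 ended with a pseudocount of 0.1 (adjusted p = 0.0973 and 0.138) and each without any of 9 libraries, namely each library of Aa-0 and Per-1, the pair of Col-0×Per-1, Col-0×Aa-0 replicate 2 and Col-0 replicates 2 and 3 (0.0573 to 0.343 for the level and 0.0601 to 0.213 for the deviation). All 10 differences of deviations were above 0, with a median of 1.01 against 0.10 for all genes. In the aliphatic branch, BCAT4 (2.47), MAM3 (2.85) and CYP79F2 (1.24) were called for that difference, and CYP79F1 (1.57), CYP83A1 (1.04), UGT74C1 (0.37), SOT17 (1.26), SOT18 (0.73), MYB28 (-0.12) and MYB29 (0.43) were not. The calls of BCAT4 and CYP79F2 each ended without any of 11 of the 12 libraries (adjusted p from 0.0515 to 0.202).

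The tandem methyltransferases did not share one pattern. IGMT4 was the most abundant copy, with 78.7 and 126 FPKM in Col-0×Aa-0, 90.2 and 58.5 FPKM in Col-0×Per-1, 62.4 and 49.0 FPKM in Aa-0, 122 and 89.3 FPKM in Per-1, and 129, 87.7, 189 and 130 FPKM in Col-0. IGMT3 stayed between 0.05 and 3.06 FPKM. IGMT4 therefore overlapped between Per-1 and Col-0, where IGMT2 did not. In Aa-0 against Col-0, IGMT2 rose by 2.65 while IGMT4 fell by 1.21, and IGMT3, not called, had 0.52 and 0.16 FPKM in Aa-0 against 0.66 to 1.92 FPKM in Col-0. IGMT3 fell by 1.39 ± 0.34 in Aa-0 against Per-1 (adjusted p = 0.0294) and by 1.57 ± 0.34 in Col-0×Per-1 against Per-1 (adjusted p = 0.0280), both calls that ended without either library of each of the 2 groups compared (adjusted p from 0.0624 to 0.261).

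**Figure D4:**
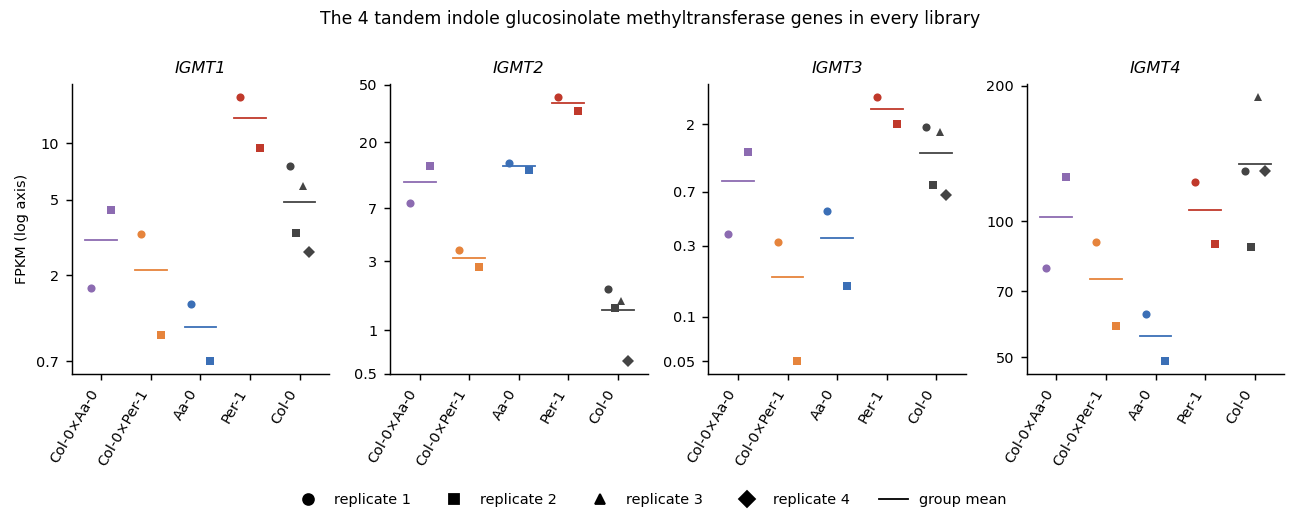
FPKM on a log axis of IGMT1, IGMT2, IGMT3 and IGMT4 in every library, by group, with 1 marker shape per replicate number and a line at the group mean. IGMT2 has its lowest values in Col-0, at 0.61 to 1.92 FPKM, while IGMT4 lies between 49.0 and 189 FPKM throughout.

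Libraries of the same group differed in a shared order for several of the genes. MYB51, CYP81F2, IGMT1, IGMT2 and SOT16 were higher in replicate 2 than in replicate 1 of Col-0×Aa-0 and higher in replicate 1 than in replicate 2 of Col-0×Per-1, Aa-0 and Per-1. The order was taken from CYP81F2 after its values were seen, so that gene holds it by definition, and 4 of the other 9 genes held it. Of all genes tested, 9.86% held it. It held for all 7 tested genes of a list of camalexin and pattern-response genes, for IGMT3 and IGMT4, and for none of the 20 aliphatic genes. The same order held for 3 of 9 shared genes (GGP1, GSTF10 and MYC2) and 2 of 9 genes of tryptophan synthesis (ASA1 and TSB1). The leaf marker RBCS1A held it as well. WRKY33, a regulator of camalexin synthesis, had 22.4 and 130 FPKM in Col-0×Aa-0, 108 and 24.2 FPKM in Col-0×Per-1, 82.9 and 21.4 FPKM in Aa-0, 223 and 172 FPKM in Per-1, and 157, 100, 229 and 55.3 FPKM in Col-0. WRKY40 ranged from 6.29 to 176 FPKM, and Col-0 replicate 4 was the lowest Col-0 library for WRKY33, WRKY40, MYB51, CYP81F2, IGMT1 and IGMT2. MYB34 had the other order in both hybrids and in Aa-0. The aliphatic genes also had the other order in both hybrids, all but MAM3, IPMI LSU1 and UGT74C1. The share of all genes with that order in both hybrids was not computed. Over all tested genes, deviations from the group mean in same-numbered libraries of the 2 hybrids had a correlation of -0.585. Opposite orders in the 2 hybrids therefore cannot be called particular to MYB34, the aliphatic genes or any other list. None of the 7 pattern-response genes was called in any of the 11 comparisons, and their part in the results on MYB51, CYP81F2 and the IGMT genes was not tested.

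**Figure D5:**
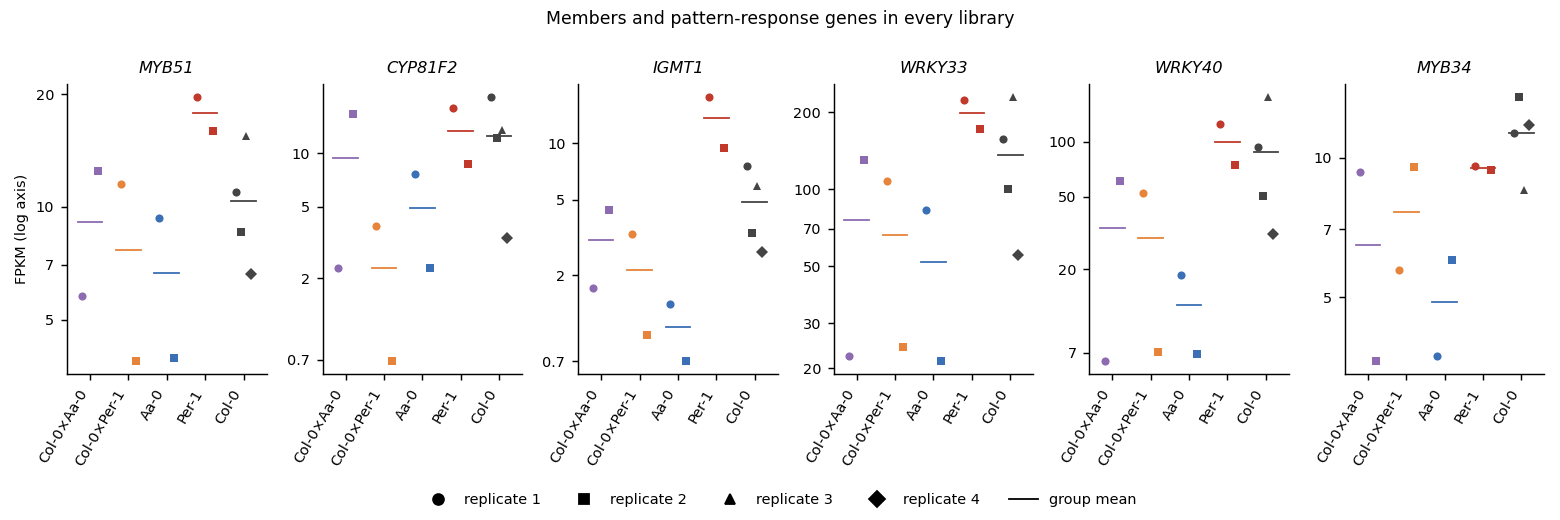
FPKM on a log axis of MYB51, CYP81F2, IGMT1, WRKY33, WRKY40 and MYB34 in every library, by group, with 1 marker shape per replicate number and a line at the group mean. The first 5 genes are higher in replicate 2 (square) of Col-0×Aa-0 and in replicate 1 (circle) of Col-0×Per-1, Aa-0 and Per-1, and MYB34 shows the other order in the hybrids and Aa-0.

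The 250 bases upstream of the annotated starts were searched on both strands for the core of the W-box, TTGAC, which WRKY factors bind. It occurred in 4 of the 10 windows, those of MYB51, CYP81F2, IGMT1 and IGMT2, and in 44.9% of the windows of 27443 genes. The G-box CACGTG, a MYC binding motif, occurred in none of the 10 and in 6.49% of all windows. The windows of the 5 genes with the shared order of replicates are shown: MYB51 (chr1:6389149-6389398, plus strand), CYP81F2 (chr5:23187590-23187839, plus strand), IGMT1 (chr1:7388513-7388762, minus strand), IGMT2 (chr1:7396824-7397073, minus strand) and SOT16 (chr1:27865695-27865944, minus strand), which holds no W-box core. They are printed with the W-box core on either strand in capitals (RefSeq TAIR10.1).
MYB51: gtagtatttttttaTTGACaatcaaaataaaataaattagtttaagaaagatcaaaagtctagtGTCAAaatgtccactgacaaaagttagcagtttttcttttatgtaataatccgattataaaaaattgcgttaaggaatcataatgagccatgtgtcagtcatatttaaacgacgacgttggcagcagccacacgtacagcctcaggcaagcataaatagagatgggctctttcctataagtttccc
CYP81F2: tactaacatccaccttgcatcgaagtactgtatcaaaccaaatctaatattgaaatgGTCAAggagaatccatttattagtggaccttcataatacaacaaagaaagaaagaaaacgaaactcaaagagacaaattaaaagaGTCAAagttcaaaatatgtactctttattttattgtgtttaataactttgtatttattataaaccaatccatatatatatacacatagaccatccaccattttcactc
IGMT1: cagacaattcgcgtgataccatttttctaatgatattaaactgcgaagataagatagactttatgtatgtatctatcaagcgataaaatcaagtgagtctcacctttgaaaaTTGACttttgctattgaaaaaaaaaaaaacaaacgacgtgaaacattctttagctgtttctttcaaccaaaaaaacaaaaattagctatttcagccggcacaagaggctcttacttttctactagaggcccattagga
IGMT2: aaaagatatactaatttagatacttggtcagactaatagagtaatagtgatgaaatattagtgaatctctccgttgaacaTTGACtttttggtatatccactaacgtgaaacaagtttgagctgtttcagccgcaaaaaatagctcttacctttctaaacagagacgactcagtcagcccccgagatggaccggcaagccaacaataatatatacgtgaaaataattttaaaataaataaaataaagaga
SOT16: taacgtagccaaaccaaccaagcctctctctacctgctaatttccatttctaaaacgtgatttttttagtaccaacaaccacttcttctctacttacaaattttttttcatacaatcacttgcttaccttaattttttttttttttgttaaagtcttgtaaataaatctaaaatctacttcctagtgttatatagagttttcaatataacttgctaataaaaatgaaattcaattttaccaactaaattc

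For each gene the most alike genes were found by the root-mean-square difference of centred log2 levels over the 12 libraries, over all genes whose mean reached 5 FPKM. For CYP79B3, CYP83B1, SOT16 and MYB34 the nearest gene was in none of the lists used here: PMEPCRA at 0.27, SAL1 at 0.14, VPS60.1 at 0.16 and CAD9 at 0.29. The nearest genes of MYB51, CYP81F2, IGMT1 and IGMT2, given below, were also in none of the lists. Only UGT74B1 and CYP79B2 had a listed gene as the nearest. UGT74B1 was closest to 3 genes that act beside it in glucosinolate synthesis, APK1, GGP1 and SUR1, at 0.13 to 0.15, where its own spread was 0.48. All 3 are among the genes shared by both branches, so this likeness does not single out the indole branch. CYP79B2 was closest to CYP83B1, at 0.22, and PAT1 of tryptophan synthesis was also among its nearest 3, at 0.25. MYB51 was closest to AT1G25550 at 0.23, with the defence kinase gene MPK3 also among its nearest 3, CYP81F2 was closest to BT1 at 0.28, and IGMT1 was closest to OPCL1 at 0.22. The gene most alike to IGMT2, AIG1, was at 0.74, where the spread of IGMT2 was 1.504.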

How the data were processed

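FPKM values of 12 first-leaf libraries were analysed as deposited by the authors, with 2 decimals. The submitters' processing notes list the build TAIR10 beside edgeR 3.12.0, Cufflinks 2.0.2, TopHat and TopHat2 2.0.8b, with no role or order given. TAIR10 is the Col-0 genome, and an effect of allele sequence on read placement in the other accessions was not tested. The labels' protocols name RNeasy columns and the TruSeq version 2 kit, which does not mark strand. The files give no counts, so depth is known only roughly: low FPKM values times gene length fell near whole steps (39.8 to 58.0% within 0.1) too rarely for a count test.

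Groups follow the sample labels. In the series text the accession is Ler-1 and samples are duplicates, whereas the labels give Per-1 and 4 libraries of Col-0. A limma 3.58.1 model (R 4.3.3) with 1 mean per group and a trended prior was fitted to log2(FPKM + 1) of the 17203 genes that reached 1 FPKM in 2 or more libraries, with 7 residual degrees of freedom. The mid-parent was the log2 mean of fitted parental values on the linear scale, with a delta-method standard error. In simulated data, changes of 1 on the log2 scale were recovered for 75% of genes in Aa-0 against Col-0 and 74% in Col-0×Per-1 against the mid-parent. The changed genes were drawn at random, with independent normal noise. These shares do not hold for genes of larger spread. Residual SDs were 1.10 for CYP81F2, 0.62 for MYB51, 0.61 for IGMT1 and 0.42 for MYB34, against a median of 0.183. Alternatives were a pseudocount of 0.1, no filter, median-ratio scaling, quantile normalization, a replicate block, either pair of Col-0 libraries alone, each library left out, and for mid-parents the mean of log2 values. Tables were read with pandas 2.3.3 in Python 3.11.15, and figures drawn with matplotlib 3.10.9. Positions and sequences come from RefSeq TAIR10.1, read with Biopython 1.88. The files hold no coordinates. The genes, lists and comparisons were chosen with earlier results of these data known, and named genes outside the 10 were the aliphatic counterparts, at most 4 called genes per list with the smallest adjusted p and the 3 most alike genes. Genes named for the order of libraries and the IGMT copies beyond the 10 genes were chosen after their values were seen.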

Additional observations from a re-analysis of the deposited data

Results flagged for a closer look

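The deviation of the hybrids from their mid-parents differed between the 2 crosses for IGMT2, by 2.69 ± 0.41 on the log2 scale (limma, adjusted p = 0.0326), with 0.40 in Col-0×Aa-0 and -2.29 in Col-0×Per-1. It differed for the aliphatic gene CYP79F2 by 1.24 ± 0.20 (adjusted p = 0.0461), with -0.12 in Col-0×Aa-0 and -1.35 in Col-0×Per-1. The call of CYP79F2 ended without any of 11 of the 12 libraries, all but Col-0 replicate 2 (adjusted p from 0.0680 to 0.202). Both differences share the Col-0 libraries as a parent of each cross.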

How the results depend on the processing

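Of 31 calls among the 10 genes, 6 held under every alternative tried: IGMT2 in Col-0×Aa-0, in Aa-0 and in Per-1, each against Col-0, and in Col-0×Per-1 against Per-1, and UGT74B1 in Aa-0 against Col-0 and against Per-1. No called value changed sign, and 27 uncalled values did. The counts of called genes moved as follows, and the causes were not tested. With 1 library left out, they ranged from 2 to 5 (5 with all libraries) in Aa-0 against Col-0, 1 to 3 (2) in Per-1 against Col-0, 1 to 7 (6) in Aa-0 against Per-1, 0 to 1 (1) in Col-0×Aa-0 against Aa-0, 0 to 4 (4) in Col-0×Per-1 against Col-0, 1 to 6 (6) against Per-1 and 0 to 4 (4) against the mid-parent. They ranged from 0 to 1 (1) between the hybrids and for the difference of mid-parent deviations. Where a group kept 1 library, it was assumed to vary like the others. Median-ratio scaling and quantile normalization both gave 2 in Aa-0 against Col-0, 4 in Per-1 against Col-0 and 1 in Col-0×Per-1 against Col-0. Median-ratio scaling gave 0 between the hybrids, and quantile normalization gave 0 in Col-0×Aa-0 against Aa-0 and 1 in Col-0×Per-1 against the mid-parent. A pseudocount of 0.1 gave 0 between the hybrids and 0 for the difference of deviations. No filter gave 3 in Aa-0 against Col-0 and 0 between the hybrids. Col-0 replicates 1 and 2 alone gave 1 in Per-1 against Col-0, 2 in Col-0×Per-1 against Col-0 and 2 between the hybrids. Col-0 replicates 3 and 4 alone gave 3 in Aa-0 against Col-0, 0 in Col-0×Aa-0 against Aa-0, 7 in Col-0×Per-1 against the mid-parent, 2 between the hybrids and 2 for the difference. The mean of log2 parental values gave 2 for the difference. Depth is known only roughly, which limits the low genes IGMT1 and CYP81F2, and IGMT2 in Col-0, at 0.61 to 1.92 FPKM.

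Libraries with the same replicate number did not all vary together. Of 20 same-number pairs, 5 had a correlation of deviations over 0.1 (range -0.585 to 0.369). The lowest value was between the 2 hybrids, and the highest was between Per-1 and Col-0×Per-1. In a group of 2 libraries the deviations from the group mean mirror each other. Pairs among such groups therefore give the same value under both numbers, so the 20 are not independent. Whether the numbers pair libraries was not settled by this check. With the replicate block, the count was 2 between the hybrids and 2 for the difference of deviations, and the calls of MYB34 in Aa-0 against Col-0 (adjusted p = 0.0601), UGT74B1 in Col-0×Aa-0 against Aa-0 (0.0834) and UGT74B1 in Col-0×Per-1 against the mid-parent (0.0517) ended.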
